A study of Mus musculus with 6 samples.

Results

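Messenger RNA was measured in a mouse colon carcinoma line, CT26.WT, and 75 of the 25407 gene rows in the deposited table had no counts in any control library but at least 12 estimated counts in each treated library. An estimated count is the authors' read estimate for a gene, and about 4 of them stand for 1 sequenced fragment, so the rule asked for at least 3 fragments per treated library. Rows whose names start with Zfp, H1f, H2ac, H2bc, H3c, H4c, Rpl, Rps, Col or Kif and rows of snRNA or snoRNA type were left out, which removed Colgalt2 and Zfp951 from 77 rows. The 75 genes are described here by family, chromosomal position and level. Because they were chosen by their counts in both groups, their difference between the groups is a description and was not tested.

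The study compared 3 libraries of control cells with 3 libraries of cells that received Cu2O@AuMn@HA, NaHS and NIR together. Cu2O@AuMn@HA is a particle whose name lists copper oxide, gold and manganese, NaHS is a donor of hydrogen sulfide, and NIR is near-infrared light. The sources used here state neither doses and times nor what the control cells received, and the parts of the treatment cannot be told apart because no library received only 1 of them. All 6 libraries come from the same line, and the labels do not say whether they were separate cultures, so p-values measure a spread between libraries that may be technical.

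Several of the 75 genes belong to families that exist as tandem copies in the mouse genome. Tcstv, Eif1ad, Pramel and Tdpoz genes are known from early mouse embryos, where a wave of transcription begins at the 2-cell stage, and from rare cells of the same kind in embryonic stem cell cultures. The homeodomain factor Dux binds and activates many genes of that stage, among them Zscan4 and Tcstv genes. Late cornified envelope (Lce) genes have another setting, the outer layer of skin, where their small proteins are crosslinked into the envelope of dying keratinocytes.

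Promoters were looked up in RefSeq for 40 of the 75 genes, which gave 49 windows of 300 bases from 250 before to 50 after the start, on the GRCm38.p6 assembly. These 3 windows are shown because the copied families share them closely and because they hold the letters GATTNAATC, the inner part of a Dux site. Capitals mark GATTNAATC or, in the Gm13040 window, also TATAAA, the TATA box. The window of Gm13040 lies at chr4:143535704-143536003 on the plus strand, and the windows of Gm13057 and Pramel20 have exactly the same 300 bases. The window of Gm21761 lies at chr13:119913419-119913718 on the minus strand, and that of AF067061 at chr13:120262845-120263144 on the plus strand.
Gm13040: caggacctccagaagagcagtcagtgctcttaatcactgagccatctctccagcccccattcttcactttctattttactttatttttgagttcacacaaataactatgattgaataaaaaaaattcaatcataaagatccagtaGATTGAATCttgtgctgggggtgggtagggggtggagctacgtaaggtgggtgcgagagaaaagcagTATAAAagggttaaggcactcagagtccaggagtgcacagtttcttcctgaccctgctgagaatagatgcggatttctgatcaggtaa
Gm21761: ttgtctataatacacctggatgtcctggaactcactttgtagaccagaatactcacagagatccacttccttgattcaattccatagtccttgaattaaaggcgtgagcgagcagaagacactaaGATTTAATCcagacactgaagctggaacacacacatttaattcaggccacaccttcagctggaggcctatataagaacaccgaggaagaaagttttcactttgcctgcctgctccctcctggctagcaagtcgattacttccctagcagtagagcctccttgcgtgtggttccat
AF067061: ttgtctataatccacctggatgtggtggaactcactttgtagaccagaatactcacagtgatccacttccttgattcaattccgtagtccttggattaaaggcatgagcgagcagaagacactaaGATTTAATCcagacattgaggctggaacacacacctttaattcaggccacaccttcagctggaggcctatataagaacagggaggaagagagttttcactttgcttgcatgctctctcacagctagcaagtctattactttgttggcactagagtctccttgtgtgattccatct

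GATTNAATC, read on both strands, was present in 6 of the 49 windows (12.2%) and in 0.268% of 32817 windows of all genes. The 6 windows belong to Gm13040, Gm13043, Gm13057, Pramel20, Gm21761 and AF067061, so they come from copied genes of only 2 families and do not count as independent. The Gm13043 window was 93.3% identical to that of Gm13040 over 270 bases, and the windows of Gm21761 and AF067061 were 90.3% identical over 300 bases. The match began 105 bases before the start in Gm13040 and 125 bases before it in Gm21761 and AF067061. The full Dux site, with 1 further base at each end, was in 0 of the 49 windows and in 0.0335% of all windows. In all, 13 letter patterns were searched after the genes were known, 1 pair of them being the same site on opposite strands, and GATTNAATC is a shortened form that was kept because it had matches. These matches are descriptions of letters and not of bound sites.

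The level of the 75 genes was low. In FPKM, a level corrected for transcript length and library depth, their mean over the 3 treated libraries ran from 0.0185 for Dnah2 to 3.75 for Gm21762, with a median of 0.221. The 14807 other rows with at least 12 estimated counts in every treated library had a median of 3.12 FPKM. Mean counts ran from 13 to 228, with a median of 27. Together the genes took 45.9, 47.9 and 42.9 CPM (estimated counts scaled to equal library totals) in treated 1, 2 and 3. In all sentences below, 3 values in a row are the libraries 1, 2 and 3 of a group.

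**Figure D1:**
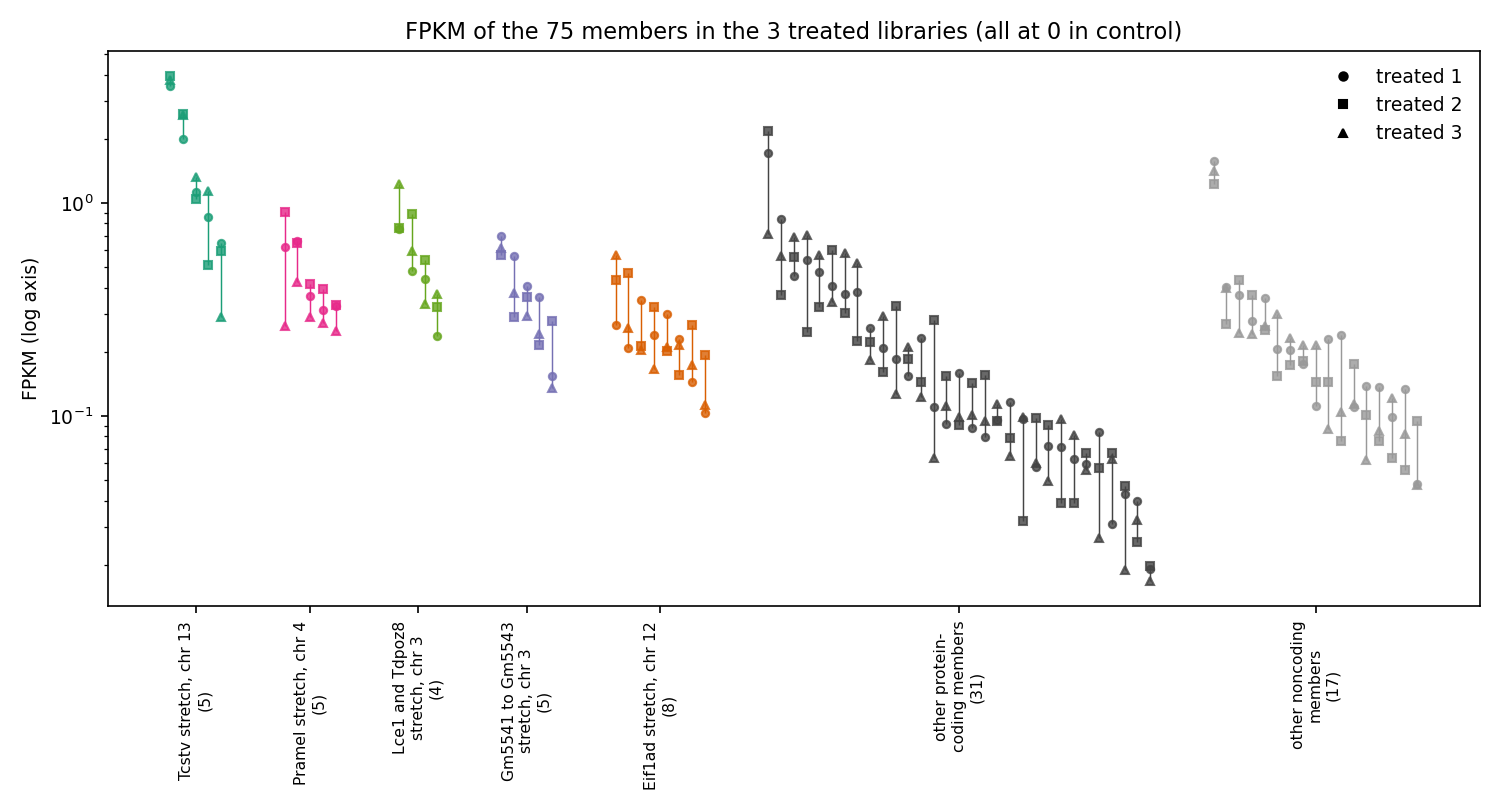
FPKM (log axis) of each of the 75 genes in the 3 treated libraries, ordered by mean within each chromosomal stretch or remaining class. Each vertical line spans the 3 libraries of 1 gene, and the numbers in brackets count genes. Krt6a, listed only with a retained-intron transcript, is in the class labelled noncoding. Gm21762 and Tcstv3 of the chromosome 13 stretch are highest at means of 3.75 and 2.40, and the lowest gene is Dnah2 at 0.0185.

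A fold change against a group at 0 has only a lower bound. Set against a floor of 3 fragments per control library, or 0.147 to 0.168 CPM, the mean treated level was at least 1.23-fold higher for Ces5a and at least 21.5-fold higher for Gm21762, with a median bound of 2.57-fold. All 75 genes passed the filter on low counts and were called higher by edgeR's quasi-likelihood test, which their selection fixed, and nothing is read from that count. Over all 16212 rows tested, 46.6% were called in either direction at an adjusted p of 0.05, and 23% were called higher.

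Control libraries totalled 71409968 to 81821380 estimated counts, and treated libraries 62328377 to 70323604. Treated libraries were the smaller ones and yet had more rows above 0, 20621 to 21059 against 18681 to 18970, with no overlap (exact permutation test, 2-sided, p = 0.1, the smallest that 3 against 3 can give). With the groups exchanged, the same rule found 3 rows (0.0118% of the table, against 0.295% for the 75 genes): Setmar, Izumo1 and Gm50147. Of the markers of gut epithelium, Krt8, Krt18 and Krt20 were present in all libraries, while Epcam was at 0, 0 and 0 counts in control and 5, 0 and 0 in treated cells. The germ cell markers with a row, 3 of 5, summed to at most 0.0432 FPKM in any library, and Ddx4 among them was at 0 in 4 of 6 libraries. Immune markers summed to 2.61 to 3.08 FPKM in control and 2.34 to 3.66 in treated cells, and Ptprc was at 0 in 5 of 6 libraries. Endothelial markers summed to at most 0.0974 FPKM. Sums without overlap between the groups were higher in treated cells for gut epithelium (153 to 169 against 224 to 238) and fibroblasts (0.728 to 0.952 against 1.47 to 1.79). They were lower in treated cells for neurons (10.3 to 12.6 against 5.39 to 6.34), erythroid cells (1.64 to 2.92 against 0.890 to 1.28) and striated muscle (9.60 to 10.8 against 8.23 to 9.19). In each list, 1 gene carried most of the difference. For gut epithelium, Krt18 rose (58.6 to 69.0 against 152 to 172 FPKM) while Krt20 fell (87.1 to 93.1 against 53.4 to 61.8). For fibroblasts it was Dcn, and Pdgfra overlapped between the groups. For the other lists it was Tubb3, Hba-a1 and Des. Acta1 of striated muscle was at 0 in every control and above 0 in every treated library. The part that other cell types or depth had in the results was not tested.

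Position set many of the genes together. With gene bodies linked at up to 200 kb, 23 of the 75 genes fell into 6 clusters. With a distance of 500 kb, chosen after the clusters were seen, 27 genes fell into 5 stretches, on chromosomes 12, 13, 4 and, in a pair, 3. The stretches held 48.2%, 51.0% and 50.1% of the counts of all 75 genes in treated 1, 2 and 3. Chromosomes 13, 12, 3 and 4 carried 10, 9, 9 and 8 of the genes, or 13.3%, 12%, 12% and 10.7%, and held 4.29%, 3.83%, 5.22% and 5.82% of all rows. Coordinates of stretches are those of the deposited table, whose genome build the sources used here do not name.

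The strongest signal lay in a 406 kb stretch of chromosome 13 (120373631 to 120779714) with Gm21761, Gm21762, Gm21731, AF067061 and Tcstv3. Tcstv3 is a member of the 2-cell-stage variable group, and the transcripts of the other 4 resemble it or each other at 71.7% to 97.6% identity. Gm21762 had 199, 250 and 236 estimated counts in treated cells, or 3.54, 3.94 and 3.77 FPKM. Tcstv3 had 106, 156 and 153 counts, or 1.99, 2.61 and 2.60 FPKM. AF067061 had 108, 113 and 140 counts. These libraries differed little for Gm21762, whose coefficient of variation of FPKM (the SD over the mean) was 5.41%, the lowest of the 75. Gm21731, at 52, 35 and 76 counts, and Gm21761, at 61, 63 and 31, varied more, at 37.7% and 37.4%.

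Other rows of that stretch moved the same way without meeting the rule, because 1 or more control libraries held a few counts. B020031M17Rik had 4, 0 and 0 counts in control and 254, 230 and 246 in treated cells, which is 7.49 ± 0.62 (SE) on the log2 scale (edgeR, adjusted p = 1.27e-05). Gm20767 had 5, 0 and 13 counts in control and 241, 253 and 313 in treated cells (log2 fold change 5.55 ± 0.64). Gm21818 had 0, 12 and 0 against 189, 214 and 225, and BC147527 had 4, 5 and 2 against 110, 123 and 78. The groups of these 4 rows did not overlap. Of the 13 rows of the stretch outside the 75 genes, 8 could be tested, 4 were called higher and none lower. The 4 called rows passed the filter on low counts because of their treated counts, so this share is not comparable with the 23% over all rows tested. Gm20900, with 102, 50 and 99 counts in control and 83, 147 and 130 in treated cells, was among those not called (log2 fold change 0.61 ± 0.35), and its groups overlapped.

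Tcstv1, the other named Tcstv gene, lies just outside the stretch. It had 0, 17 and 0 counts in control and 112, 164 and 140 in treated cells, which is 4.70 ± 0.92 on the log2 scale (edgeR, adjusted p = 0.00217). Without control 2, which held all of its control counts, the fitted value was 10.14. Both D13Ertd608e and AF067063, which neighbour it, also rose. D13Ertd608e had 7, 0 and 0 counts in control and 252, 262 and 171 in treated cells. AF067063 had 13, 0 and 0 against 92, 72 and 48, and its call (edgeR adjusted p = 0.00901) was lost with DESeq2 and without treated 1, over a range of adjusted p up to 0.0523 among 11 alternatives. Fitted fold changes of rows with so few control counts depend on the small count that edgeR adds, so their size is approximate. For B020031M17Rik the value was 10.97 without control 1, the only control library with counts, and for Gm20767 it was 6.80 without control 3.

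Eif1ad genes, which encode relatives of translation initiation factor 1A, made the longest stretch, 730 kb of chromosome 12 (87561086 to 88290796). The file has 15 rows with an Eif1ad name, and all 15 were at 0 in every control library. Of these, 7 met the rule: Eif1ad8, Eif1ad6, Eif1ad2, Eif1ad17, Eif1ad10, Eif1ad7 and Eif1ad15. Eif1ad8 was highest of these, with 27, 67 and 37 counts or 0.207, 0.467 and 0.259 FPKM. Eif1ad17 was lowest, with 13, 28 and 16 counts. Gm21939, a processed pseudogene inside the stretch, exceeded them all with 50, 92 and 118 counts.

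The 15 Eif1ad rows summed to 285, 436 and 236 counts in treated cells. Treated 2 held the most in that sum and also in Eif1ad8, Eif1ad6, Eif1ad17 and Eif1ad15, but Eif1ad10 and Eif1ad2 were highest in treated 1. Outside the rule, Eif1ad11 had 11, 30 and 16 counts and missed it by 1 count in treated 1. Eif1ad13, with 12, 36 and 0, and Eif1ad4, with 9, 24 and 0, were not seen in treated 3. Transcripts of the 7 genes were 91.3% to 99.8% identical, with a median of 97.2% over 21 pairs, so the division of reads among them depends on how the authors' counting treated copies, which the sources used here do not state.

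Pramel genes encode leucine-rich repeat proteins related to PRAME, an antigen of testis and tumours. A 443 kb stretch of chromosome 4 (143237913 to 143681269) held Gm13043, Gm13040, Gm13057, Pramel20 and Pramel16, and the first 4 of these were the only rows within their 62.5 kb. Pramel20 had 94, 104 and 67 counts, or 0.664, 0.646 and 0.426 FPKM. Pramel16 had 71, 117 and 34 counts, or 0.619, 0.903 and 0.264 FPKM. Gm13057, Gm13040 and Gm13043 were lower and near each other, at mean FPKM of 0.358, 0.327 and 0.303. Treated 3 was the lowest library for each of the 5 genes.

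Their transcripts were 96.8% to 100% identical over 10 pairs, the closest of any group, and their levels cannot be fully separated for that reason. Pramel39-ps on chromosome 5, named as a pseudogene but typed in the file as a long noncoding RNA, had 30, 21 and 13 counts. Of 28 rows with a Pramel name, 24 were at 0 in every control library and 5 could be tested. Of these 5, 3 were members, whose call the rule fixed. Pramel52-ps, with 0, 4 and 0 counts in control and 40, 56 and 31 in treated cells, was also called higher. It passed the filter on low counts because of its treated counts, so nothing is read from the number of calls. Pramel12, the most abundant of the family, had 1636, 1420 and 1352 counts in control and 1147, 1596 and 1421 in treated cells (log2 fold change 0.02 ± 0.12, adjusted p = 0.908), and its sign changed when any of 4 libraries was left out.

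Tdpoz genes encode proteins with a TRAF-type domain and a POZ domain and are relatives of Spop, an adaptor of a ubiquitin ligase. Tdpoz8 on chromosome 3 had 64, 90 and 55 counts, or 0.437, 0.541 and 0.334 FPKM. A separate 530 kb stretch (chromosome 3, 93535947 to 94066028) held 5 unprocessed pseudogenes, Gm5541, Gm9113, Gm9121, Gm5542 and Gm5543, whose transcripts resembled Tdpoz8 or each other at 77.5% to 99.1% identity. Gm5543 was highest, with 52, 48 and 51 counts and a coefficient of variation of 10.8%. Gm5541 was lowest, with 12, 24 and 12 counts, exactly at the threshold in 2 libraries.

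Protein-coding relatives beside these pseudogenes rose as well. Tdpoz5 had 0, 0 and 5 counts in control and 30, 42 and 36 in treated cells (log2 fold change 4.40 ± 1.06; edgeR, adjusted p = 0.00679; fitted at 8.22 without control 3, which held all control counts). Tdpoz7 had 0, 0 and 6 against 28, 31 and 38, and its call was lost without treated 3 (edgeR adjusted p = 0.0618). Spopfm2 had 0, 0 and 2 against 25, 45 and 19. Spopfm1 had 0, 0 and 8 against 32, 47 and 36, and its call was lost when any 1 treated library was left out (edgeR adjusted p up to 0.0660). In the 9 rows named Tdpoz or Spopfm, 5 could be tested and all 5 were called higher, where 23% of all rows tested were. The call of Tdpoz8 was fixed by the rule. The other 4 passed the filter on low counts because of their treated counts, so nothing is read from this count.

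**Figure D2:**
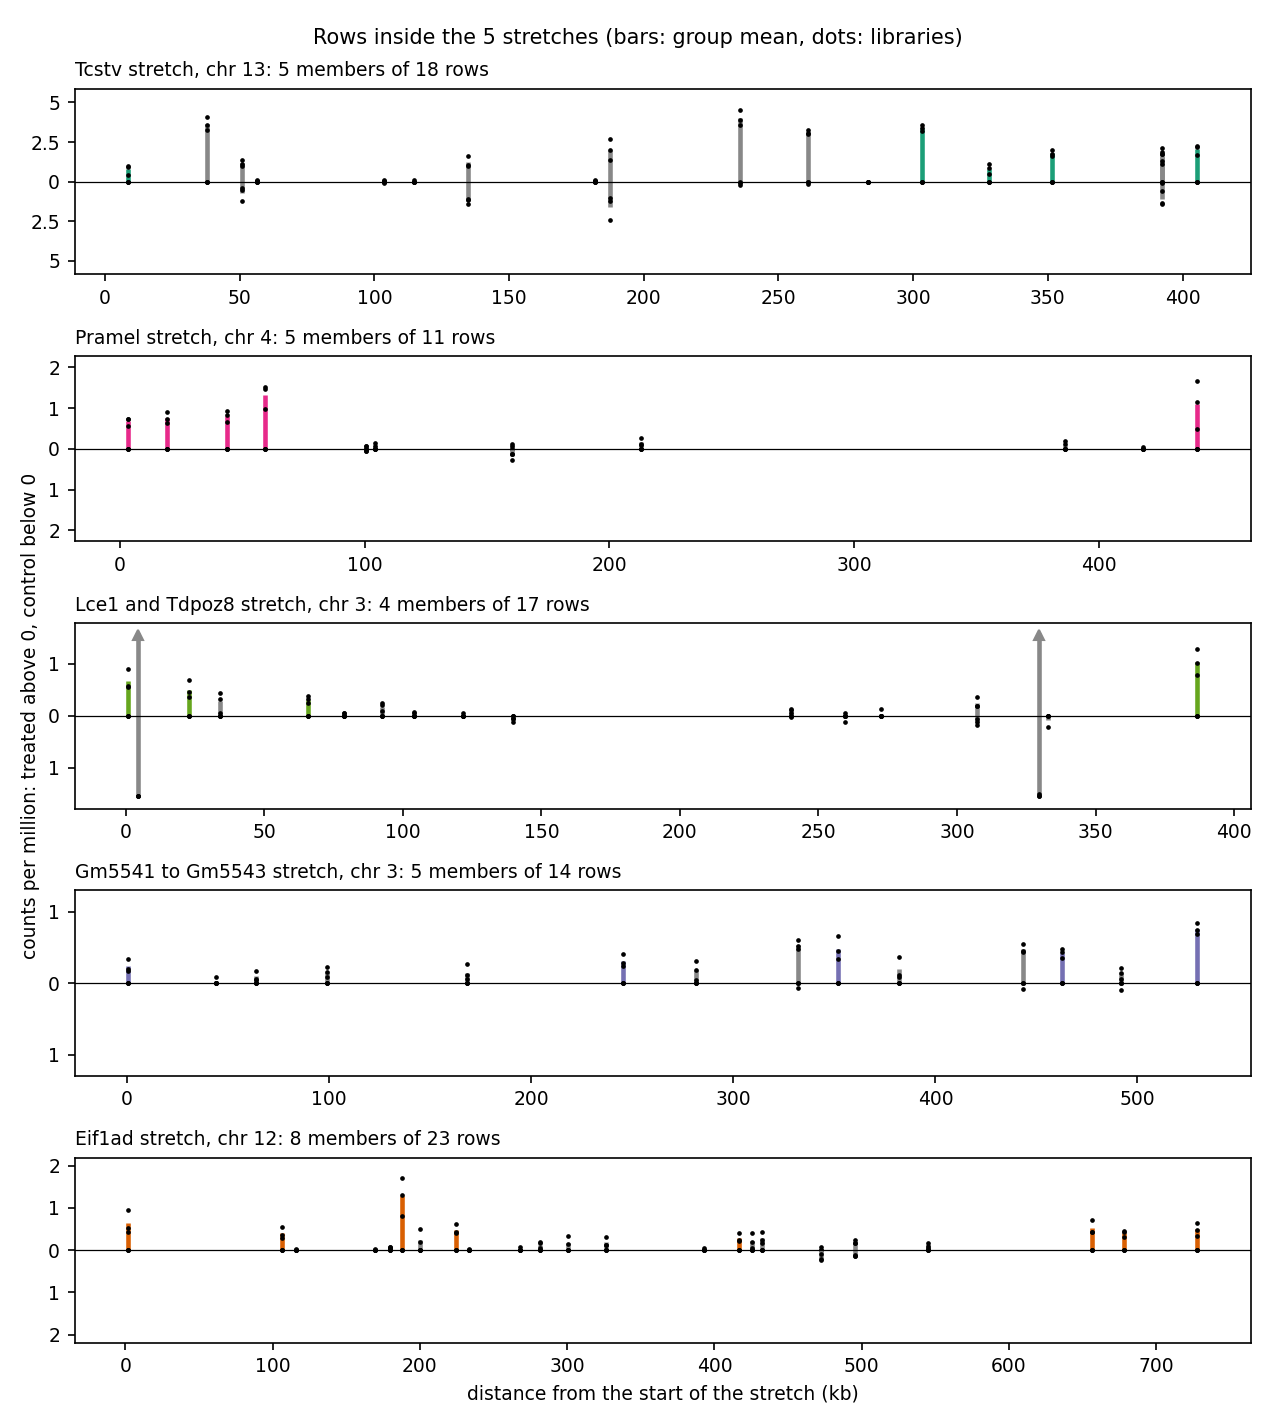
CPM of every row along the 5 stretches, by distance from the start of the stretch in kb. Bars above 0 are treated means and bars below 0 are control means, coloured for the 75 genes and grey for other rows, with dots for single libraries; 2 rows past the axis, in the Lce1 panel, are truncated and carry a triangle. Coloured bars have nothing below 0, and the tallest on chromosome 13 belongs to Gm21762.

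The skin genes Lce1d, Lce1e and Lce1g lay within 66.8 kb of chromosome 3 (92592806 to 92659645), in a 390 kb stretch that ends at Tdpoz8. Lce1d had 35, 40 and 63 counts, or 0.750, 0.763 and 1.23 FPKM. Lce1e had 23, 48 and 32 counts, and Lce1g had 15, 23 and 26. Each was lowest in treated 1. Other Lce1 rows stayed below the rule: Lce1f had 4, 23 and 31 counts in treated cells, Lce1i had 15, 7 and 14, and both were at 0 in control. Summed over 15 Lce rows, the counts were 6, 24 and 23 in control and 126, 204 and 200 in treated cells.

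Other rows of the region went in both directions, and the genes named here were chosen after their values were seen. Sprr1a, a small proline-rich precursor of the cornified envelope, had 0, 4 and 4 counts in control and 159, 140 and 130 in treated cells (log2 fold change 5.79 ± 0.59; edgeR, adjusted p = 4.24e-05), and it ran from 5.20 to 6.21 with 1 library left out. It was the only 1 of 8 Sprr rows with enough counts to be tested. Because Sprr1a passed the low-count filter through its treated counts, its adjusted p is only a description. Crct1, in the same stretch as the Lce1 genes, had 115, 126 and 152 against 234, 296 and 298 (log2 fold change 1.17 ± 0.21). Lce3f was tested and not called (adjusted p = 0.313). Kprp, with 4, 4 and 8 counts in control and 0, 0 and 0 in treated cells, and Lce1m, with 0, 0 and 15 against 0, 0 and 0, were too low to be tested. Krt6a, a keratin of hair follicles and healing skin, met the rule with 66, 50 and 72 counts, and the file lists only a retained-intron transcript for it. Of 23 tested keratin and keratin-associated rows besides Krt6a, 6 (26.1%) were called higher and 6 (26.1%) lower. These shares were near those over all rows tested, 23% and 23.5%, so nothing is read from them. Krt8 and Krt18 of simple epithelium rose, with log2 fold changes of 0.67 ± 0.14 and 1.28 ± 0.10. Krt20, a keratin of gut epithelium, fell from 14361, 15028 and 12625 to 7438, 9076 and 7707 counts (log2 fold change -0.69 ± 0.07; edgeR, adjusted p = 6.18e-05).

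**Figure D3:**
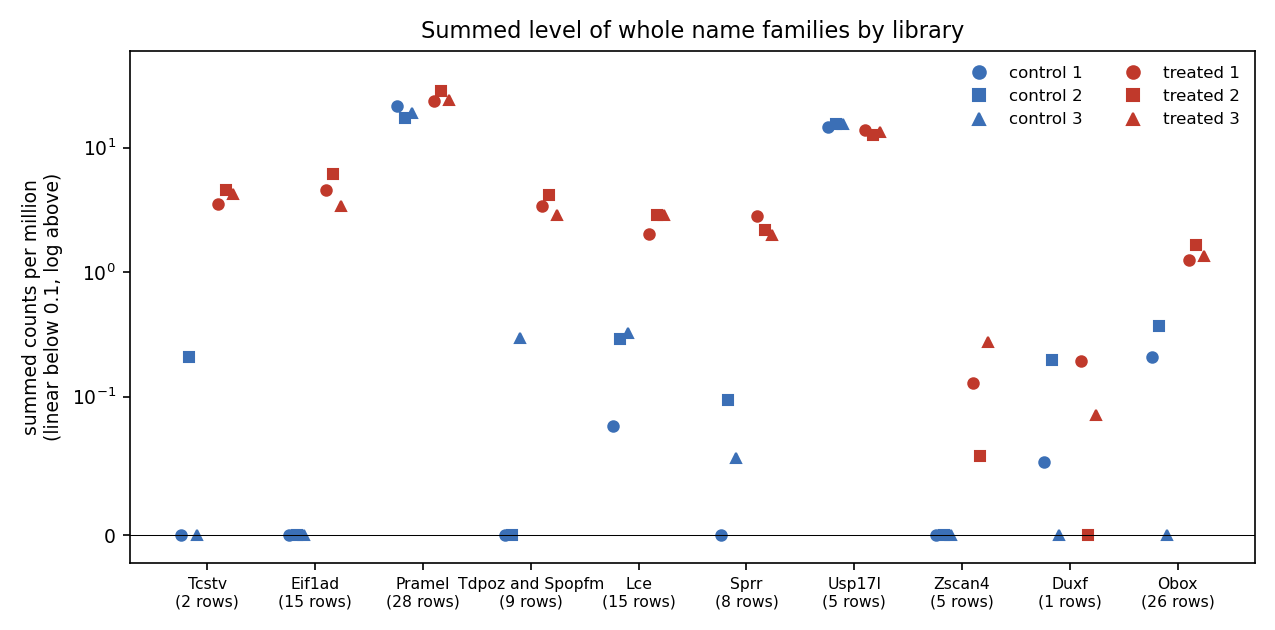
Summed CPM of every row in 10 name families, by library (axis linear below 0.1 and logarithmic above). The Eif1ad sum is 0 in all control libraries and 3.41 to 6.20 in treated ones, while the Usp17l sum is 14.6 to 15.6 in control and 12.7 to 13.7 in treated libraries.

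Other genes of the 2-cell stage did not share one direction. These families were picked by name after the 75 genes were seen. Zscan4 rows, 5 in all, summed to 0, 0 and 0 counts in control and 8, 4 and 19 in treated cells, too few to be tested. Duxf3 had 4, 16 and 0 counts in control and 12, 0 and 6 in treated cells, which overlap. Among 5 Usp17l rows, which encode deubiquitinating enzymes, Usp17lc had 3, 4 and 2 counts in control and 108, 119 and 109 in treated cells (log2 fold change 5.27 ± 0.41; edgeR, adjusted p = 9.04e-06). Usp17lc passed the low-count filter because of its treated counts and was picked after its values were seen, so its adjusted p is only a description. Usp17ld also rose, from 29, 56 and 25 to 98, 127 and 74. The most abundant of them, Usp17la, fell from 933, 1109 and 1017 to 555, 529 and 577 (log2 fold change -0.77 ± 0.14; edgeR, adjusted p = 0.00152). Obox6, a homeobox gene of oocytes and embryos, had 16, 16 and 0 against 35, 64 and 49 and was not called (adjusted p = 0.0514), though DESeq2 called it.

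The remaining 48 genes lay outside the stretches, and 31 of them were protein coding. Ccl4, a chemokine that attracts macrophages and T cells, had 24, 13 and 35 counts, or 0.538, 0.247 and 0.704 FPKM. Its libraries differed by more than those of most of the 75 genes, at a coefficient of variation of 46.7% against a median of 30.8%. Among other chemokine genes, Ccl2 rose from 203, 132 and 140 to 381, 605 and 409 counts (log2 fold change 1.65 ± 0.23), and Ccl5 rose with a log2 fold change of 1.34 ± 0.24. Ccl9 fell with a log2 fold change of -0.72 ± 0.13. Of 49 tested rows for interleukins, chemokines and interferons besides Ccl4, 16 (32.7%) were called higher and 5 (10.2%) lower, where all rows tested had 23% and 23.5%. Other name families described below differed, again without the 75 genes. The share called higher was 21.8% for testis and germ cell names, 19.3% for cilium and flagellum genes and 18.3% for homeobox genes. It was 23.2% for solute carriers, 32% for cytochromes P450 and 32.4% for conjugating enzymes.

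Further immune genes ran from a mean of 0.590 FPKM for H2-Bl, above the median of 0.221 of the 75 genes, to 0.0325 for Skap1. H2-Bl, a class I histocompatibility gene named for the blastocyst, had 96, 48 and 72 counts, with a loss-of-function coding type in the file. Dntt, the polymerase that adds nucleotides to antigen receptor joints in lymphocytes, had 17, 50 and 12 counts and the highest coefficient of variation of the 75 genes, 75.7%. Treated 2 held most of its counts. Rnase6, an antimicrobial ribonuclease, had 17, 33 and 23 counts. Skap1, an adaptor of T cell receptor signalling, had 20, 15 and 19, a mean of 0.0325 FPKM.

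Genes of germ cells and cilia were also among them. Hfm1, a helicase needed for meiotic crossovers, had 84, 167 and 64 counts, a mean of 0.212 FPKM. Prss55, a serine protease of the testis, had 20, 18 and 32 counts. Patl2, an RNA-binding protein of oocytes, had 27, 17 and 19 counts, and its gene body overlaps B2m and Trim69 on the other strand. Dnah2, a heavy chain of ciliary dynein, had 20, 23 and 20 counts spread over a long transcript, and it was the lowest of the 75 in FPKM with a small coefficient of variation of 8.27%. Efcab6, with an EF-hand calcium-binding domain, had 35, 77 and 46 counts. Nkx1-1, a homeobox gene, had 34, 56 and 31.

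Transporters, channels and enzymes formed another group of single genes. Slc6a12, a betaine and GABA transporter, had 48, 34 and 29 counts. Slc12a1, the sodium, potassium and chloride cotransporter of the kidney, had 33, 25 and 12. Calhm3, a subunit of a channel in taste cells, had 27, 25 and 46 counts, and Atp13a4, a P-type ATPase, had 38, 69 and 49. Cyp3a41a, a cytochrome P450, had 36, 35 and 29 counts. Its near copy Cyp3a41b had 45, 0 and 0 counts in control and 26, 38 and 25 in treated cells and was not called (adjusted p = 0.519), so 1 control library separates the 2 copies. Ces5a, a carboxylesterase, had 12, 15 and 12 counts, the smallest lower bound of the set. Mmel1, a membrane peptidase, had 17, 12 and 26, and Nat8f2, an acetyltransferase-like gene, had 26, 20 and 16.

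Mslnl, related to the surface protein mesothelin, was among the better covered single genes, with 81, 112 and 136 counts or 0.455, 0.557 and 0.689 FPKM. Gml, a membrane-anchored protein of the Ly6 kind, had 37, 29 and 50 counts. Gm10487 on the X chromosome came next to Tcstv3 in level, with 106, 151 and 49 counts or 1.72, 2.18 and 0.716 FPKM, and treated 3 lay far below the other libraries. The kinase Dapk2 had 19, 13 and 26 counts, the membrane protein Tmem45a 16, 23 and 12, the receptor gene Gpr137c 27, 33 and 14, and the protease inhibitor Spink10 19, 42 and 39. The coding rows U90926, AI182371, Gm13889, Gm6882 and Gm14443 ran from 0.0716 to 0.375 mean FPKM.

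Noncoding types made up most of the rest: 14 of the 75 were long noncoding RNAs and 7 pseudogenes, against 52 typed as protein coding. The 2 of other types were Gm9817 and the keratin gene Krt6a, listed only with a retained-intron transcript. The row ENSMUSG00000121830 on chromosome 18 was the highest noncoding one, with 67, 59 and 67 counts and 1.57, 1.23 and 1.41 FPKM, and it overlaps AA684185 on the same strand. Rows within 100 kb of it also rose. Gm50193 had 0, 0 and 1 counts in control and 38, 38 and 49 in treated cells. Gm50180 had 0, 3 and 0 against 41, 49 and 57. Gm36627, Gm36718, Gm50190 and Gm50192 were called higher too, while Gm5823 was tested and not called. The called rows passed the low-count filter because of their treated counts, so nothing is read from these calls. Outside the stretches the next long noncoding RNAs were Gm26877 and 1700110C19Rik, at means of 0.350 and 0.297 FPKM. Krt6a aside, the other rows outside the stretches not typed as protein coding (Pramel39-ps, Gm17024, Gm36839, Gm57398, Gm57083, Gm36298, Gm31728, Gm3772, Gm49767, Gm34343, Gm9817, ENSMUSG00000121456 and BC065397) lay between 0.0633 and 0.291. In all, 34 of the 75 names were predicted genes, clones or identifiers and 41 were assigned symbols. Bodies of 15 genes overlapped another row, 4 on the same strand and 11 on the other. The values of the 11 are uncertain because the sources used here do not say whether counting used the strand. For the 4, counting by strand would not separate the reads. One of them, Gm17024, overlaps Ifrd1, which had 9714, 6991 and 7435 counts in control and 15061, 18256 and 14192 in treated cells. Whether reads were shared was not tested.

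Rows near the 75 genes were compared next, since the rule did not choose them. Within 100 kb there were 193 tested rows outside the 75, of which 52 were called higher and 38 lower. Beside the genes outside the stretches, 22.8% of 167 tested rows were called higher and 22.2% lower, where all rows tested had 23% and 23.5%. Some of these rows, such as Gm50193 and Gm50180 beside ENSMUSG00000121830, passed the low-count filter because of their treated counts. The shares outside the stretches are therefore not directly comparable with those over all rows tested. Beside the genes in the stretches, 14 of 26 tested rows (53.8%) were called higher and 1 lower. The stretches were defined on the 75 genes, and many of these neighbours are copies that may share reads with them, so the 14 are not independent of the rule. Several of the 14, such as B020031M17Rik, Gm21818 and Tdpoz5, had counts in only 1 control library and passed the low-count filter because of their treated counts. The 53.8% is therefore not comparable with the 23% over all rows tested. Without that filter, 24 of 72 were called higher. By limma on log2(FPKM + 1), which leaves out rows under a mean of 1 FPKM, 6 of 13 were called higher.

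**Figure D4:**
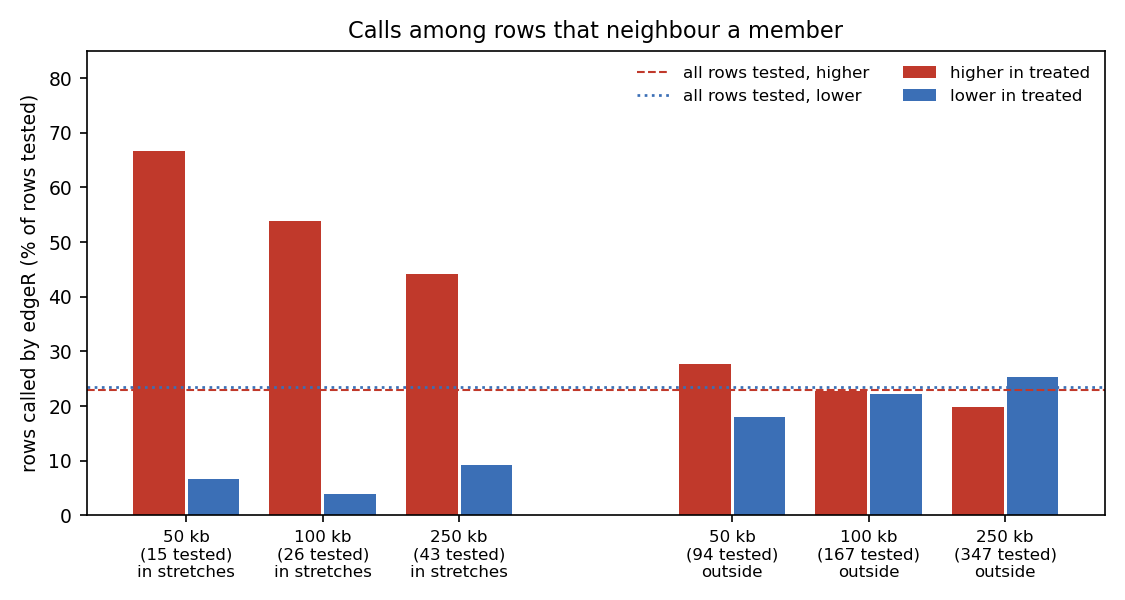
Share of tested rows called higher (red bars) or lower (blue bars) by edgeR among rows within 50, 100 or 250 kb of the 75 genes, inside and outside the stretches; dashed and dotted lines are the shares over all rows tested, 23% and 23.5%. At 100 kb the bars reach 53.8% and 3.85% in the stretches and 22.8% and 22.2% outside them. Several neighbours, in the stretches and also outside them, passed the low-count filter because of their treated counts, so the bars are not directly comparable with the lines.

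The copied sequence of the genes was measured on transcripts of the GENCODE M21 annotation, which held 69 of the 75. By an alignment over at least 50% of the shorter transcript, 28 genes fell into 6 groups of similar sequence, the 5 families above and the pair Gm14443 and Gm36298. The genes' transcripts had a median length of 1850 bases and a median GC content of 46.8%. Over all rows the medians were 2330 bases and 49.6%, and over the other rows called higher 2808 bases and 47.2%.

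The treated libraries ranked the 75 genes alike only in part. Pearson's r of log2 CPM across the genes was 0.776 between treated 1 and 2, 0.806 between 1 and 3 and 0.718 between 2 and 3, as a description, since genes are not independent replicates. The coefficient of variation of FPKM had a median of 30.8%, and the 4198 other rows of up to the highest mean count of the set had a median of 23.1%. Those rows were capped at a mean count of 228 but not matched to the genes' median of 27, so the medians are not directly comparable.

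The threshold of 12 counts lay within a continuous range. Of the 75 genes, 11 had a lowest treated count of exactly 12, among them Ces5a, Gm34343 and Gm5541. Just outside were 45 rows at 0 in control whose lowest treated count was 8 to 11, such as Kctd19 with 20, 43 and 11 counts and H2-M10.4 with 27, 10 and 30. On the control side, 32 rows had at least 12 counts in every treated library but 1 to 5 counts in the 3 control libraries together, B020031M17Rik among them. In the whole table, 3797 rows were at 0 in every control library and 485 of these were above 0 in every treated library. In the other direction, 1376 rows were at 0 in every treated library and 40 of these were above 0 in every control library.

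None of the 75 genes was on any of 7 lists of stress and signalling genes. The lists had 13 to 24 rows each, at most 4 of them at 0 in every control library. Since the 75 genes are 0.295% of all rows, finding none on such short lists says little. Beside 46.6% of all tested rows called in either direction, 17 of 22 tested hypoxia-linked genes were called higher and none lower, and 12 of 16 immediate early and inflammatory genes were called higher and 2 lower. Of 19 heat shock genes, 8 were called higher and 6 lower. For 15 p53 targets the counts were 8 and 4, for 11 ferroptosis genes 6 and 3, for 11 metal response genes 4 and 4, and for 16 interferon-stimulated genes 5 and 3. The median log2 fold change was 1.03 for the hypoxia-linked genes and -0.12 for the heat shock genes.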

How the data were processed

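Per the labels' protocols, libraries were made from oligo-dT selected mRNA with dUTP marking of the second strand and read as pairs. The submitters' processing notes name HISAT2 2.2.1 and StringTie 2.1.6, cutadapt 1.9, edgeR and DESeq2 without roles. Genome build, annotation and strand use in counting: not given in the sources used here. Per the file headers, the authors deposited FPKM and a count per gene and library. These are estimated counts that the authors deposited as whole numbers; the value 4 was over-represented (4054 cells of the table, where 3 and 5 averaged 2539.5), so about 4 seemed to stand for 1 fragment. CPM was computed from library totals.

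Rows were tested on these counts with the quasi-likelihood test of edgeR 4.0.16 (R 4.3.3) after its default low-count filter and TMM scaling, 2-sided, Benjamini-Hochberg adjusted over 16212 rows at 0.05. SE is the log2 fold change over the square root of F. Alternatives were DESeq2 1.42.0, limma 3.58.1 on log2 FPKM, other scalings, filters, distances and count minimums, a replicate block and each library left out. Counts divided by 4 and all results for stretches were added after the data were seen. Transcripts were compared with BLAST 2.17.0. Promoters came from RefSeq on GRCm38.p6 and were not combined with the file's coordinates. The floor of 12 estimated counts covers counting error only.

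The 75 genes, families, lists, motifs and distances were chosen with earlier results of these data known. The naming rule took the 15 assigned symbols and 5 other rows highest in FPKM, up to 4 genes per family and 5 per cluster, extremes of variation, rows beside the thresholds, and up to 3 called relatives per family and 4 called neighbours per cluster. All other named genes were chosen after their values were seen.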

Additional observations from a re-analysis of the deposited data

How the results depend on the processing

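The number of genes found depended on the threshold: 120 with a minimum of 8 estimated counts and 38 with 20, and 97 to 118 with 1 library left out (114, 118 and 116 without control 1, 2 and 3). With the groups exchanged, 7 rows were found at a minimum of 8, 1 at a minimum of 20 and 10 with up to 4 counts in treated cells, and 6 to 10 with 1 library left out. Leaving out a library removes 1 condition of the rule, so the numbers of rows found could only stay the same or rise. Rows in the stretches called higher beside the genes numbered 14 of 26 tested, and 24 of 72 without the low-count filter, 6 of 13 with limma at a pseudocount of 1 or 0.1, and 15 to 20 with 1 library left out; those called lower numbered 1, then 4 at 250 kb and 1 to 2 with 1 library left out. Of all neighbours, 18 were called lower at 50 kb, and 88 were called higher and 92 lower at 250 kb. The numbers of the libraries did not pair them (correlations of same-numbered libraries 0.040, -0.10 and 0.0065); with the replicate block, 3070 rows were called higher and 3205 lower, against 3735 and 3813 without it. With library totals only, 4183 were called higher and 3351 lower. With 1 library left out, the log2 fold change of Usp17le, not called at -0.07, ran from -0.32 to 0.20 (0.20 without control 1, 0.06 without treated 1), and that of Pramel12, not called at 0.02, ran from -0.064 to 0.093 (below 0 without control 2, control 3, treated 2 or treated 3). The causes were not tested. Depth is 1 limit: the genes' mean treated counts had a median of 27 estimated counts, and a control count of 0 allows up to 12. Rows whose control counts sat in 1 library, such as Tcstv1, Gm21818 and Tdpoz5, kept their call in each of these fits, but the fitted size rose from 4.70 to 10.14, from 5.79 to 10.74 and from 4.40 to 8.22 without that library.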
